A study of Homo sapiens with 3 samples.

Results

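The 10 genes described here encode enzymes with which macrophages change small molecules during activation: IDO1, KYNU, KMO, NAMPT, NOS2, ARG2, ASS1, GCH1, IRG1 (now named ACOD1) and CH25H. They were chosen by name from the gene names of the array design, with earlier results of these data known. They make up 10 of the 25044 genes with a gene identifier and 15 of the 58201 transcript probes. RNA was measured on 3 one-color oligonucleotide arrays of 1 slide, 1 array per condition. The cells were THP-1, a monocytic leukemia line of human origin, which the phorbol ester PMA (100 ng/mL for 24 to 36 h) had turned into macrophage-like cells in all 3 conditions. For the Ctrl macrophages, the labels name no agent beside PMA. The IMQ macrophages received imiquimod, a ligand of toll-like receptors, and the IMQ+DMD macrophages received DMD, a small benzenediol with methoxy and methyl groups from the mushroom Antrodia cinnamomea, before IMQ. The labels give 4 h for every array and no dose of IMQ or DMD, and they write the agent of the third array as X, which was read as DMD because no other compound is named beside IMQ. A leukemia line treated with PMA is a model of macrophages and not a primary cell.

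IDO1 takes the first, rate-limiting step from tryptophan to kynurenine, KMO hydroxylates kynurenine, and KYNU cleaves kynurenine and its hydroxylated product on the way to NAD. NAMPT makes NAD from nicotinamide by the salvage route. NOS2 turns arginine into nitric oxide, ARG2 splits arginine in mitochondria, ASS1 helps to rebuild arginine from citrulline, and GCH1 starts the synthesis of tetrahydrobiopterin, the cofactor of nitric oxide synthases. IRG1 makes itaconate from an intermediate of the citric acid cycle, and CH25H makes 25-hydroxycholesterol, an oxysterol. Activated macrophages are known to use these routes to starve microbes of amino acids, to signal, and to restrain inflammation, and human macrophages are known for far less nitric oxide synthesis than those of mice.

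Values are intensities of Cy3 fluorescence that the authors had quantile normalized. Since each condition had 1 array, differences have neither a check by replicates nor a p-value. A gene was called at a difference of at least 2-fold, that is, 1 log2 unit. The only error that the arrays give is the SD among repeat spots (10 per repeated probe), read at the brightness of the probe on both arrays compared (spot SD below), which covers noise within an array only. By the mark of the scanner software, all 15 probes stood well above background on each of the 3 arrays, and 0 of their spots carried an outlier mark. A gene with several probes was represented by the one with the highest mean log2 value. The scanner rated between 66.6% and 72.0% of all probes well above background. Of 10 macrophage markers, 8 were matched on the array, and all 8 were well above background on each array. Their summed normalized intensity read 676026.9 in Ctrl, 558464.5 with IMQ and 542321.3 with IMQ+DMD. Of 14 markers of other cell types, 11 or 12 were above background on each array, KLRD1 and EPCAM on none, and their sum was between 9529.2 and 10931.5. Of the markers, CD163 differed by -1.22 log2 units and NCAM1 by 3.08 between IMQ and Ctrl, and KRT5, dim with IMQ alone, was at least 2.16-fold higher with IMQ+DMD than with IMQ. Between IMQ+DMD and Ctrl, CD14 differed by -1.21 and CD163 by -1.13, both macrophage markers, and NCAM1 by 2.42. The part of these shifts in the results was not tested. In RNA from a whole culture, fewer cells of a kind and less RNA per cell cannot be told apart.

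After IMQ, 3 of the 10 genes were at least 2-fold higher than in Ctrl: IDO1, KYNU and NAMPT. Over all genes compared, 4.29% were higher by this rule. NOS2 and CH25H, 2 of the 10 genes, were at least 2-fold lower, beside 4.49% of all genes. The other 5 genes differed by less than 2-fold. The median difference of the 10 genes was 0.06 log2 units, beside -0.03 over all genes, with single genes from -1.58 to 5.47. When DMD preceded IMQ, 0 of the 10 genes exceeded IMQ alone by 2-fold or more, beside 0.835% of all genes. IDO1 and CH25H, 2 of the 10 genes, were at least 2-fold lower, beside 0.979% of all genes. The median of the 10 genes was -0.15, beside -0.01 over all genes. Against Ctrl, the IMQ+DMD array had the same 3 genes higher and the same 2 lower, beside 3.38% and 5.97% of all genes. The comparisons share arrays, so that a high or low value on the IMQ array enters the first and the second of them with opposite signs.

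**Figure D1:**
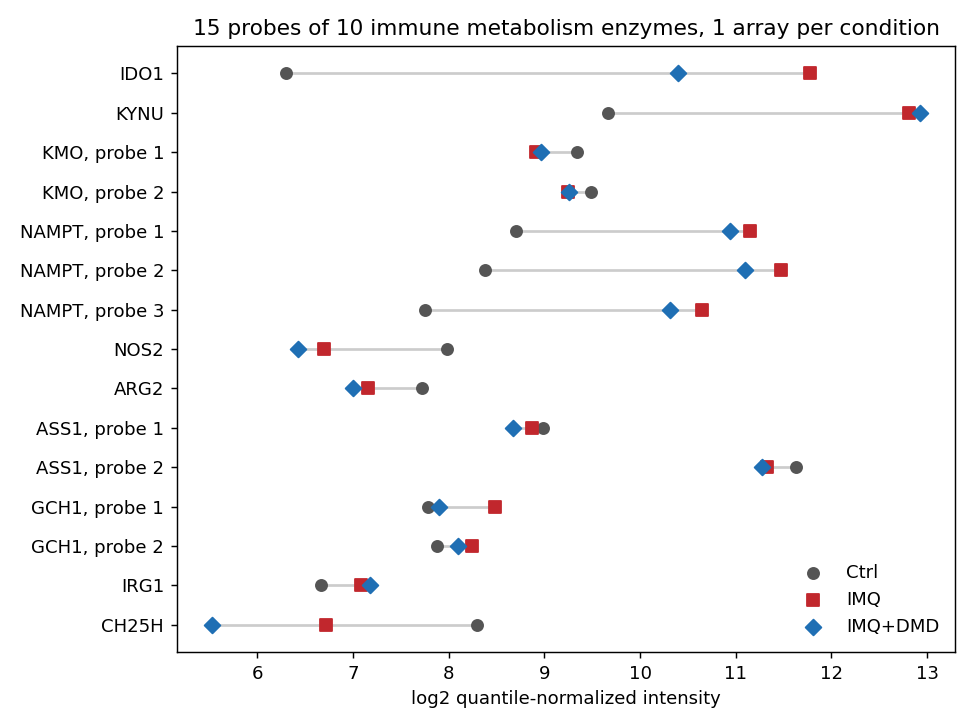
Normalized intensity of the 15 probes of the 10 enzymes on the log2 scale (x axis), with 1 symbol for each array (Ctrl, IMQ, IMQ+DMD) and no error bar, since there was 1 array per condition. IDO1, KYNU and the 3 NAMPT probes lay far to the right of Ctrl on both treated arrays, and only for IDO1 among them were IMQ and IMQ+DMD more than 1 log2 unit apart. Distances can be read along a line, not between lines, because probes differ in brightness.

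Among the 10 genes, IDO1 had the largest difference between IMQ and Ctrl. Its normalized intensity read 78.9 in Ctrl, 3503 with IMQ and 1351 with IMQ+DMD. The array of IMQ alone was thus the highest and Ctrl by far the lowest. With IMQ alone it was 44.4-fold above Ctrl (log2 difference 5.47, spot SD 0.18). With DMD before IMQ it was 2.59-fold lower than after IMQ alone (log2 difference -1.37, spot SD 0.07). It stayed 17.1-fold above Ctrl, so that 74.9% of its rise on the log2 scale remained. With normexp background correction the log2 differences from Ctrl were smaller, 4.61 for IMQ and 3.32 for IMQ+DMD. IDO1 was represented by 1 probe.

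KYNU followed IMQ in the same direction. Its normalized intensity read 811 in Ctrl, 7165 with IMQ and 7786 with IMQ+DMD. Both treated arrays stood far above Ctrl. KYNU was 8.84-fold higher after IMQ (log2 difference 3.14, spot SD 0.07). The log2 difference between IMQ+DMD and IMQ was 0.12 (spot SD 0.06), within 2 spot SDs, and its sign turned with scaling to the 75th percentile (-0.06). The rise that remained with DMD was 103.8% on the log2 scale. The 60 bases that captured the KYNU transcript, at chr2:143715219-143715278 of hg19 on the plus strand, are shown because KYNU, unlike IDO1, was not lower with DMD, and they held 1 reading frame without a stop codon.
KYNU probe: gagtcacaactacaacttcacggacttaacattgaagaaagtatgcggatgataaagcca

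KMO, which competes with KYNU for kynurenine, did not reach 2-fold at either of its 2 probes. Its brighter probe had normalized intensities of 719 in Ctrl, 609 with IMQ and 611 with IMQ+DMD. Its other probe had 649, 483 and 500 in the same order. The differences between IMQ and Ctrl were -0.24 and -0.43 log2 units, with spot SDs of 0.07 and 0.08, so Ctrl was the highest array at both probes. Between IMQ+DMD and IMQ they were 0.00 and 0.05, within 1 spot SD. The second probe is shown because its 60 bases spread over 150 genomic bases (chr1:241753373-241753522 of hg19, plus strand), so that it reads spliced RNA.
KMO probe: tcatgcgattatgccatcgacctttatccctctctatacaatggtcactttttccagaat

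NAMPT, the NAD salvage enzyme, was higher after IMQ at all 3 of its probes. The probe that represented the gene had normalized intensities of 332 in Ctrl, 2840 with IMQ and 2186 with IMQ+DMD. The other probes had 215, 1608 and 1275, and 416, 2278 and 1970. All of them ranked the arrays alike, with IMQ highest and Ctrl lowest. The rises after IMQ were 8.55-fold, 7.46-fold and 5.48-fold (log2 differences 3.10, 2.90 and 2.45, spot SDs 0.08 to 0.11). The IMQ+DMD values were below those of IMQ by less than 2-fold, with log2 differences of -0.38, -0.33 and -0.21 and a spot SD of 0.07 or less. Each of these was past 2 spot SDs, and between 87.8% and 91.5% of the rise remained. The probe with the lowest Ctrl value, at chr7:105912977-105913036 of hg19 on the minus strand, is shown as one of 3 separate stretches of the gene that gave this order.
NAMPT probe: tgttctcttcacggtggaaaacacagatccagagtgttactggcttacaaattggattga

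Among the arginine enzymes, NOS2 was called with the quantile-normalized values and ARG2 with some other scalings. NOS2 had normalized intensities of 252 in Ctrl, 104 with IMQ and 86.0 with IMQ+DMD. Ctrl was the highest array, and the treated arrays lay close together. NOS2 was 2.43-fold lower after IMQ (log2 difference -1.28, spot SD 0.20), and the difference was -0.85, under 2-fold, with normexp background correction and -1.93 with spike-in scaling. Between IMQ+DMD and IMQ the log2 difference was -0.27 (spot SD 0.24), and it was 0.14 with spike-in scaling. The probe lay at chr17:26083862-26083921 of hg19.

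With the quantile-normalized values, ARG2 and ASS1 were below Ctrl on both treated arrays by less than 2-fold. ARG2 had normalized intensities of 210 in Ctrl, 143 with IMQ and 128 with IMQ+DMD. Its log2 difference was -0.55 (spot SD 0.13) between IMQ and Ctrl and -0.16 between IMQ+DMD and IMQ, where it was 0.20 with spike-in scaling. ARG2 passed 2-fold between IMQ and Ctrl without normalization between arrays (-1.11) and with spike-in scaling (-1.18), and between IMQ+DMD and Ctrl without normalization (-1.04). ASS1, at its brighter probe, had 3178, 2574 and 2486 in the same order. The log2 difference of ASS1 was -0.30 (spot SD 0.06) between IMQ and Ctrl. Its second probe, with 509, 467 and 407, had a difference of -0.12 there, within 2 spot SDs. ASS1 differed by -0.05 and -0.20 between IMQ+DMD and IMQ at these probes.

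GCH1 had 2 probes, which the array design assigned to different RefSeq transcripts and whose log2 differences were unlike in size. The probe that represented it had normalized intensities of 236 in Ctrl, 303 with IMQ and 274 with IMQ+DMD, and the other had 221, 357 and 238. IMQ was the highest array at both. The log2 differences from Ctrl were 0.36 and 0.69 (spot SD 0.11 each), but without normalization between arrays or with spike-in scaling the first of them fell below 0, to -0.12 and -0.19. Between IMQ+DMD and IMQ the differences were -0.15 (spot SD 0.09) and -0.59 (spot SD 0.11). Only the second was past 2 spot SDs, and the first was 0.09 with spike-in scaling.

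IRG1 stayed under 2-fold in all comparisons. Its normalized intensity read 101 in Ctrl, 136 with IMQ and 145 with IMQ+DMD. The log2 difference between IMQ and Ctrl was 0.42 (spot SD 0.20), and it was -0.14 without normalization between arrays and -0.21 with spike-in scaling. The difference between IMQ+DMD and IMQ was 0.09, within 1 spot SD. Its probe, at chr13:77532009-77532068 of hg19 on the plus strand, is shown so that the transcript behind these low values can be identified.
IRG1 probe: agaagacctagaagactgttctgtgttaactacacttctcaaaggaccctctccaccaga

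CH25H was the gene with the lowest values after both treatments relative to Ctrl. Its normalized intensity read 314 in Ctrl, 105 with IMQ and 46.2 with IMQ+DMD. The order was Ctrl, IMQ, IMQ+DMD. CH25H was 2.98-fold lower after IMQ than in Ctrl (log2 difference -1.58, spot SD 0.18). It was 2.28-fold lower with DMD before IMQ than after IMQ alone (log2 difference -1.19, spot SD 0.27), and 6.80-fold lower than in Ctrl (log2 difference -2.77, and -1.68 with normexp background correction). Between IMQ and Ctrl it was -1.05 with normexp background correction and -2.22 with spike-in scaling. The spot on the Ctrl array was uneven, with a pixel SD of 26.2% of its mean, higher than in 99.8% of spots of like brightness, and CH25H had no other probe. The comparison of IMQ+DMD with IMQ does not use that spot. In the scanner signal before normalization the IMQ and IMQ+DMD spots read 85.5 and 46.0, and the log2 difference without normalization between arrays was -0.90, under 2-fold. It was -0.96 with scaling to the 75th percentile, -0.76 with spike-in scaling and -0.63 with normexp background correction. IDO1 kept at least 2-fold under each of these.

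**Figure D2:**
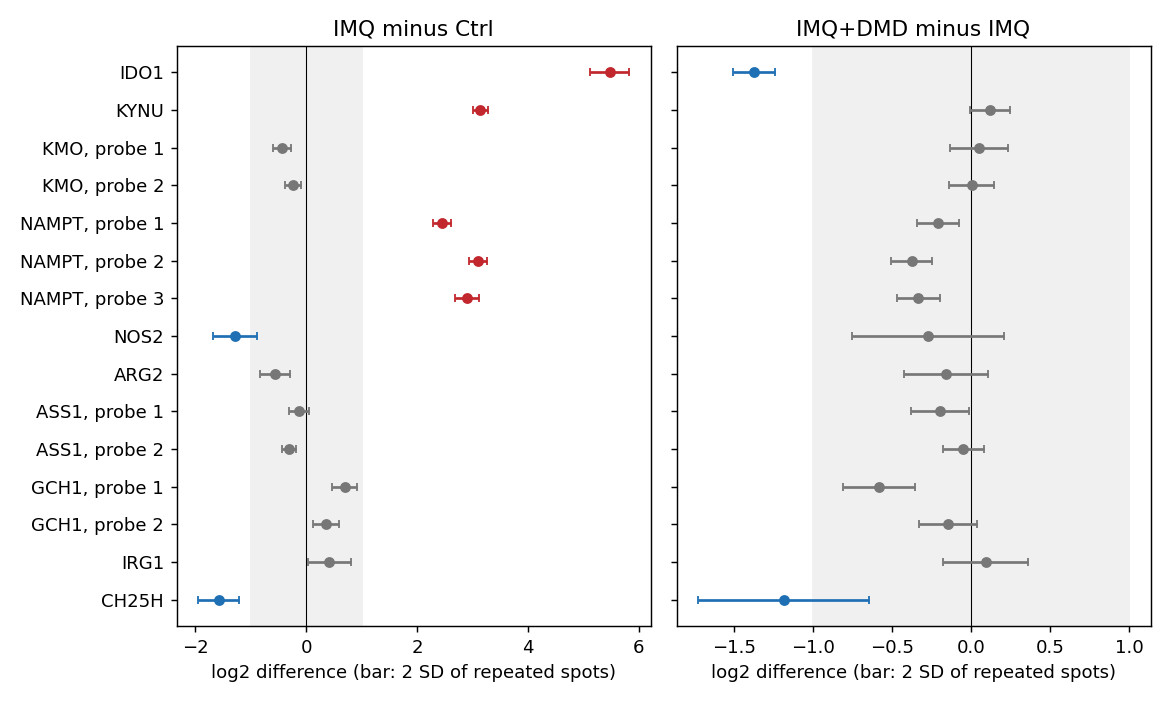
Log2 difference of each of the 15 probes (x axis) for IMQ minus Ctrl and for IMQ+DMD minus IMQ, with bars of 2 spot SDs to each side and a grey band for differences under 2-fold. The scales of the panels differ. At left, 5 probes lay above the band and 2 below, and at right IDO1 (-1.37) and CH25H (-1.19) lay below it and no probe above.

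Against the noise within an array, 14 of the 15 probes differed by more than 2 spot SDs between IMQ and Ctrl. Between IMQ+DMD and IMQ, 7 of the 15 probes did, namely those of IDO1, NAMPT and CH25H and 1 probe each of GCH1 and ASS1. The other 8 probes differed by less. By gene, 10 of 10 passed 2 spot SDs in the first comparison and 3 of 10 in the second. The share of all genes past this limit was not computed, so these counts cannot be read as particular to the 10 genes.

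**Figure D3:**
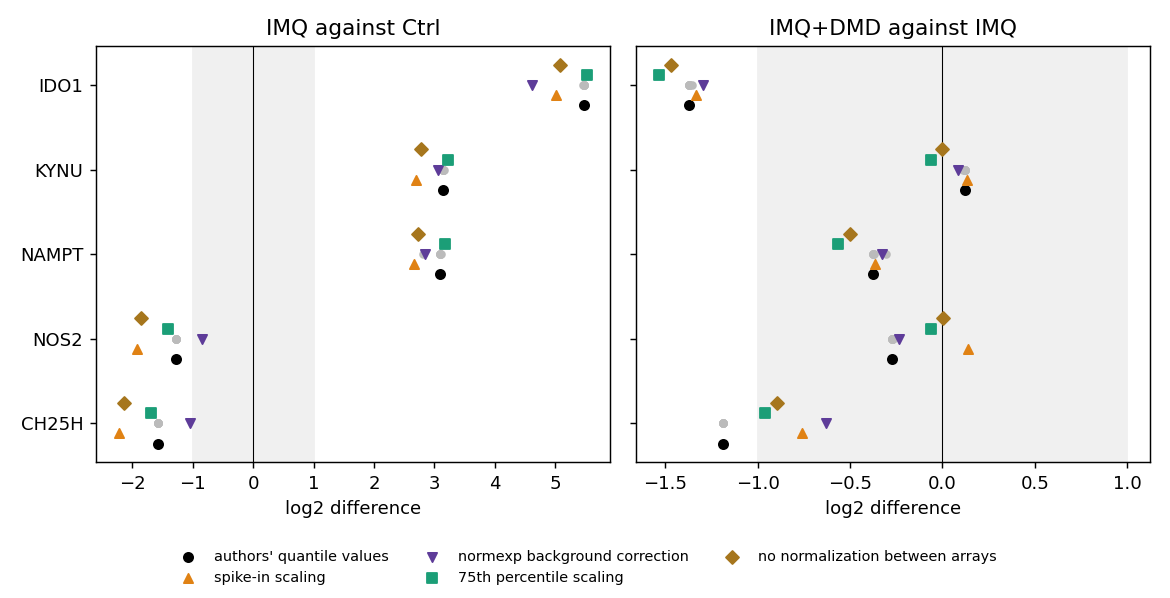
Log2 differences of the 5 called enzymes (x axis) with the quantile-normalized values of the authors and under 10 alternatives, of which the 4 with the largest shifts have symbols and the others are grey. The grey band marks differences under 2-fold. IDO1, KYNU and NAMPT stay above 2-fold at left, NOS2 enters the band with normexp background correction, and at right CH25H enters it with all 4 marked alternatives while IDO1 does not.

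RefSeq promoter windows (GRCh38.p14) were matched to 7 of the 10 genes, with 8 windows, and none was used for IDO1, GCH1 and NOS2. The 250 bases before each start were searched on both strands for 5 motifs: NF-κB, AP-1 (TGANTCA), CRE (TGACGTCA), GAS (TTCNNNGAA) and ISRE. A match is a string of letters and not a shown binding site. GAS, the motif of STAT proteins, was found in the KYNU window, 34 bases before the start, and in 6.57% of all 35116 windows. CRE was found in the ARG2 window, at 172 and 64 bases before the start, and in 1.65% of all windows. NF-κB, AP-1 and ISRE, held by 9.96%, 6.57% and 3.02% of all windows, were in none of the 8. The windows of KYNU, higher after IMQ, and of CH25H, lower after IMQ, are shown, with the GAS match in capitals. The first lies at chr2:142877414-142877663 on the plus strand and the second at chr10:89207318-89207567 on the minus strand.
KYNU promoter: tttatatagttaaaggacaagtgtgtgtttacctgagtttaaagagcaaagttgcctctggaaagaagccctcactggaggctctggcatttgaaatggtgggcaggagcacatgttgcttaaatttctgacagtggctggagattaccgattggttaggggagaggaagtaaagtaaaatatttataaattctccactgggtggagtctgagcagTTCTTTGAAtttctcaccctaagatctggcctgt
CH25H promoter: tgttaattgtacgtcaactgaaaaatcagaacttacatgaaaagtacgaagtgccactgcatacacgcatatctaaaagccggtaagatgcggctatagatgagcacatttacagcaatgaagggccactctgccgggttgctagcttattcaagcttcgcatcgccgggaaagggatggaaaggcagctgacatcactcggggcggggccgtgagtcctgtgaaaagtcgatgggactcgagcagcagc

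The neighbouring genes of each route were read from lists. Of 27 further kynurenine and NAD genes, 25 could be compared between IMQ and Ctrl, with a median of 0.07. Of these, 3 were at least 2-fold higher and 1 lower, beside 4.29% and 4.49% of all genes. IDO2, the paralog of IDO1, had normalized intensities of 6.79 in Ctrl, 311.7 with IMQ and 165.5 with IMQ+DMD. Its Ctrl spot was not well above background, so IDO2 with IMQ was at least 18.9-fold higher, measured from the floor of the Ctrl array, its lowest value of a probe well above background. With DMD its log2 difference from IMQ was -0.91, under 2-fold. Both tryptophan-opening IDO genes were thus highest on the IMQ array. TDO2, which also opens tryptophan, had 10719 in Ctrl, 18016 with IMQ and 16877 with IMQ+DMD. Its log2 difference was 0.75 after IMQ and -0.09 between IMQ+DMD and IMQ, both under 2-fold. CD38, an NAD-consuming enzyme, had 54.6, 138 and 102 in the same order, a rise of 1.33 log2 units after IMQ. NADK2, the mitochondrial NAD kinase, had 186, 383 and 255, a rise of 1.04. QPRT, which carries the kynurenine route into NAD, differed by -1.49, from 15215 in Ctrl to 5429 after IMQ and 6344 after IMQ+DMD. The other 21 genes of this list were under 2-fold between IMQ and Ctrl at the probe that represented each. Of these, PARP1 differed by -0.92 there and by -1.25, past 2-fold, at another of its 3 probes.

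Of 27 further arginine, nitric oxide and polyamine genes, 26 could be compared, with a median of -0.13. After IMQ, 3 of them were higher and 0 lower, beside 4.29% and 4.49% of all genes. SAT1, which acetylates spermidine and spermine, was 11.1-fold higher after IMQ, with a log2 difference of 3.47 and of 3.30 and 3.53 at its other probes. SMOX, spermine oxidase, was 3.74-fold higher, at a probe with 10 spots. SLC7A2, a transporter of cationic amino acids, was 2.88-fold higher. ODC1, the entry enzyme of polyamine synthesis, differed by 0.11. ARG1, at the probe that represented it, was not well above background on any array. Its other probe could be compared between IMQ+DMD and Ctrl only, with a log2 difference of 0.18.

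Genes called after IMQ in the lists of the cofactor, the citric acid cycle and oxysterols are set beside 4.29% higher and 4.49% lower over all genes. Of 7 tetrahydrobiopterin genes, 0 were called after IMQ at the probe that represented each, with a median of -0.24. Of 27 genes of itaconate handling and the citric acid cycle, 0 were higher and 3 lower, with a median of -0.12. These were SLC25A10, the mitochondrial dicarboxylate carrier (-1.66), and the isocitrate dehydrogenases IDH2 (-1.18) and IDH1 (-1.12). Of 6 oxysterol genes, 1 was higher and 0 lower, with a median of 0.45. It was GPR183, the receptor of a product made from 25-hydroxycholesterol, with 1353 in Ctrl, 4715 with IMQ and 3249 with IMQ+DMD (log2 difference 1.80 after IMQ). The enzyme CH25H and the receptor GPR183 thus differed from Ctrl in opposite directions.

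Between IMQ+DMD and IMQ, none of these 5 lists held a called gene, with 0 higher and 0 lower in each, beside 0.835% higher and 0.979% lower over all genes, a share at which lists of this size hold few calls or none. Their medians were -0.09 for kynurenine and NAD, -0.10 for arginine, nitric oxide and polyamine, -0.01 for tetrahydrobiopterin, -0.01 for itaconate and the citric acid cycle, and -0.06 for oxysterol, beside -0.01 over all genes. SAT1 differed by -0.10, SMOX by -0.55 and GPR183 by -0.54. Single genes ran in both directions, from -0.55 to 0.49 in the arginine list and from -0.54 to 0.58 in the oxysterol list.

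**Figure D4:**
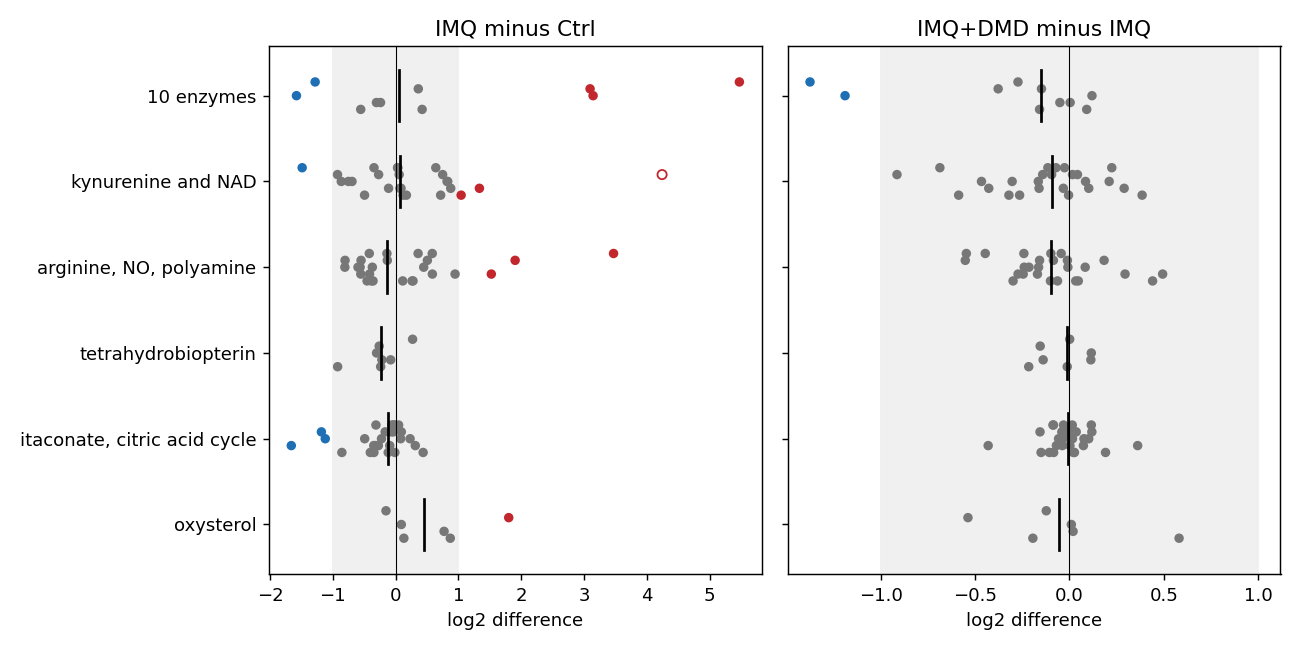
Log2 difference of every compared gene (x axis) of the 10 enzymes and of the 5 lists of neighbouring genes (y axis), for IMQ minus Ctrl and for IMQ+DMD minus IMQ, with a black line at each median, a grey band for differences under 2-fold and an open circle for a lower bound (IDO2). Points are spread vertically for legibility, and the scales of the panels differ. At right, IDO1 and CH25H are the only points outside the band.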

How the data were processed

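One-color arrays, 1 for each of Ctrl, IMQ and IMQ+DMD, were grouped by the sample titles. Per the file headers, the scanner software was Feature Extraction 10.5.1.1 and probes were placed on hg19. The authors deposited this scanner output and a table of raw and quantile-normalized intensity for each probe. The raw intensity equalled the processed signal of the scanner. From the normalized intensity, log2 values were taken here. Dim probes (not well above background) were raised to a floor, the lowest value among probes above background on that array, unless their own value exceeded it, and a probe was compared where the brighter array was well above background. Quantile normalization repeated here differed from the deposited values by a median of 0.0013 log2 units. Quantile normalization assumes equal intensity distributions and hides a shift common to most genes.

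The members and lists were chosen with earlier results of these data known. The text names all 10 members at every probe and, of the lists of neighbouring genes, every gene at least 2-fold different in IMQ against Ctrl or IMQ+DMD against IMQ, or otherwise the gene with the largest difference, which is not reported here. ODC1, ARG1, PARP1 and the markers CD14, KLRD1 and EPCAM are outside that rule and were named after their values were seen. No p-value was computed, and precision is limited by the number of arrays. Spot noise came from 300 probes with 10 spots each, as the median SD in steps of 1 log2 unit. Python 3.11.15, numpy 2.4.6, pandas 2.3.3, matplotlib 3.10.9, R 4.3.3 and limma 3.58.1 were used, and the calculation of calls was tested on simulated data. The 12 alternatives were another quantile normalization, scaling to the 75th percentile, none, or to 8 of 10 spike-in probes, normexp background correction with an offset of 50, other handling of dim or outlier-marked spots, thresholds of 1.5-fold and 4-fold, and other choices of probe. Promoter windows came from RefSeq (GRCh38.p14).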

Additional observations from a re-analysis of the deposited data

How the results depend on the processing

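No paired analysis was possible because each condition had 1 array, and leaving out an array was not run for the same reason. Of 300 values of single members under the alternatives, 283 kept their sign. The 120 values of called members all kept theirs, and 115 stayed at least 2-fold. These totals include settings that could not move a value. All 15 probes were well above background and 0 of their spots were outlier-marked, so other handling of dim or outlier-marked spots changed nothing. Other choices of probe could not change the 6 members with 1 probe. Where a call ended, the cause was not tested.

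The number of members lower in IMQ+DMD against IMQ (2) was 1, IDO1 alone, under 4 alternatives (75th percentile, spike-in, no normalization, normexp background correction; 1 each), and 0 at a 4-fold threshold. In IMQ against Ctrl, the number lower (2) was 1 with normexp background correction, 0 at 4-fold, and 3, with ARG2, for spike-ins and for no normalization. In IMQ+DMD against Ctrl it was 1 at 4-fold and 3, with ARG2, for no normalization and at 1.5-fold.

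The median of the members in IMQ against Ctrl (0.06) was -0.47 when scaled to spike-ins and -0.40 when not normalized, while the median of all genes shifted by -0.54 and -0.47. In IMQ+DMD against IMQ the median (-0.15) was -0.087 with scaling to the 75th percentile, -0.0233 without normalization, 0.11 with spike-in scaling, where all genes shifted by 0.13, and -0.22 with the mean over probes and with the probe of highest linear intensity.

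Over all genes in IMQ against Ctrl, the share of higher among called genes (48.9%) was 9.0% when scaled to spike-ins, 11.5% when not normalized and 70.4% at 4-fold. In IMQ+DMD against IMQ this share (46.0%) was 79.8% for the 75th percentile, 87.1% for no normalization, 93.9% for spike-ins, 35.5% for normexp and 25.0% at 4-fold. There, 173 higher and 203 lower genes became 447 and 113, 588 and 87, 963 and 63, 11 and 20, and 4 and 12, in that order, 752 and 666 with no floor or filter, 128 and 129 where both arrays had to be above background, and 946 and 976 at 1.5-fold. In IMQ against Ctrl, 893 and 935 became 394 and 3979 for spike-ins, 433 and 3345 for no normalization, 513 and 576 for normexp, 1425 and 1591 with no floor or filter, 2217 and 2495 at 1.5-fold, and 228 and 96 at 4-fold. In IMQ+DMD against Ctrl, 729 and 1286 (36.2% higher) became 415 and 2422 (14.6%) for spike-ins, 378 and 2765 for no normalization, 471 and 759 for normexp, 1182 and 1736 with no floor or filter, 2054 and 2961 at 1.5-fold, and 183 and 173 (51.4%) at 4-fold.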
